A study of Mus musculus with 8 samples.

Results

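The genes described here serve the handling of unfolded protein in the endoplasmic reticulum (ER) and the response to amino acid shortage. They number 31 and were chosen by function: 14 ER chaperones and folding enzymes, 3 genes of ER-associated degradation, 3 ER stress sensors, 2 transcription factors and 9 targets of the transcription factor Atf4. All 31 were found on the array among 22865 features that could be tested, and all 31 were well above background on all 8 arrays. The values are gene expression array measurements of mouse peritoneal macrophages from animals lacking Fra-1 (gene Fosl1) or Fra-2 (gene Fosl2), which are both subunits of the transcription factor AP-1.

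Each of the 4 groups held 2 arrays. The Fra-2 controls carried loxP sites at both copies of the Fra-2 gene without Cre (Fra-2lox/lox), and the Fra-2 knockouts carried the same alleles with LysMCre, which is active in myeloid cells. The Fra-1 controls were Fra-1lox/lox, and the Fra-1 knockouts were Fra-1lox/lox with MxCre, a Cre driven by an interferon-inducible promoter that is not restricted to macrophages. All mice were 8 weeks old, of either sex, on a mixed 129/C57Bl6 background, and controls were littermates. The labels call both Fra-1 groups thioglycollate elicited and give no such description for the Fra-2 groups. Mouse line, elicitation and preparation therefore cannot be told apart in any comparison of the lines. In all groups the cells washed from the peritoneum were kept in culture overnight, and the RNA came from the cells that stuck to the dish. The labels do not say beyond the mouse what separates the arrays of a group, so p-values measure the spread between these arrays.

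Proteins that enter the ER fold with the help of chaperones such as Hspa5 (BiP) and of disulfide isomerases. When unfolded protein builds up, the sensors Ern1 (IRE1), Eif2ak3 (PERK) and Atf6 are activated. Ern1 splices the mRNA of Xbp1, and Xbp1 and cleaved Atf6 induce chaperones and degradation genes. Eif2ak3 phosphorylates eIF2, which slows translation in general and favours translation of Atf4. Other kinases, among them the amino acid sensor Eif2ak4 (GCN2), phosphorylate the same site, so that Atf4 and its targets in amino acid synthesis and transport can be induced without unfolded protein. An array measures mRNA only, and neither Xbp1 splicing nor the protein and activity of the sensors was measured.

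Values are given as log2 normalised signal, where 0 is the 75th percentile of the array's probes, and a difference of 1 is a doubling of signal. A gene was called when its adjusted p in limma, corrected over all 22865 features by Benjamini-Hochberg, was under 0.05. Across the 8 arrays, 47.7% to 57.6% of spots were well above background. Fra-2 knockout 1 had both the lowest share of such spots and the lowest 75th percentile, a signal of 315 where the other arrays had 366 to 470. All 9 macrophage markers on the array, among them Adgre1, Csf1r and Cd68, were well above background in every group. Signal of the Fosl1 probe was −2.73 and −1.97 in the Fra-1 controls and −4.78 and −4.18 in the Fra-1 knockouts. The brighter Fosl2 probe read 5.51 and 5.57 in the Fra-2 controls and 6.43 and 7.14 in the Fra-2 knockouts, whereas the dimmer one read −2.59 and −2.64 against −3.96 and −3.82. The brighter probe goes against the labels. The Fosl1 probe was well above background on 6 of 8 arrays, the brighter Fosl2 probe on 8 and the dimmer one on 4. The lowest signals well above background were −4.45 and −4.49 on the Fra-1 knockout arrays and −3.85 and −4.50 on the Fra-2 knockout arrays. The low readings of these probes thus lie near the floor. Where these probes lie relative to the deleted parts is not given in the sources used here, so the group names below are those of the labels.

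The promoters of the chaperones and of the Atf4 targets carry different known elements, and the windows below show those of genes to which the results return. RefSeq promoters (build GRCm38.p6, 250 bases before to 50 bases after each start) were matched for 28 of the 31 genes and searched on both strands. The ER stress response element ERSE (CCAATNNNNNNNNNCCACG) stood in 7 of 12 chaperone promoters, in 0 of 9 Atf4 target promoters and in 0.14% of the 27025 genes with a promoter. Capitals mark the element, here in Hspa5 (chr2:34772005-34772063, plus strand), Calr (chr8:84847055-84847113, minus strand), Pdia6 (chr12:17266471-17266529, plus strand) and Dnajc3 (chr14:118937807-118937865, plus strand), each written 5′ to 3′ along the gene's strand.
Hspa5: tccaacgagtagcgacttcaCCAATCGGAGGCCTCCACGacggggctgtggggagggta
Calr: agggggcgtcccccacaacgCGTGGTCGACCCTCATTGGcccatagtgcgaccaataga
Pdia6: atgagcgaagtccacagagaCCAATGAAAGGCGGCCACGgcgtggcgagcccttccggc
Dnajc3: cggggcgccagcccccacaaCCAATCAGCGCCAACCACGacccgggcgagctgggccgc
In Calr the element lies on the opposite strand, and in Hspa5 its first base lies at −65 from the start. Hsp90b1 (with 2 copies), Canx and Creld2 are the other chaperones with this element.

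The amino acid response element, searched as TGATGNAA, stood in 3 of 9 Atf4 target promoters (Trib3, Asns and Chac1), in Herpud1, in 0 of 12 chaperone promoters and in 4.51% of all genes. It is shown in capitals for Asns (chr6:7693210-7693252, minus strand), Chac1 (chr2:119351029-119351076, plus strand), Trib3 (chr2:152344028-152344057, minus strand) and Herpud1 (chr8:94386297-94386344, plus strand), on the opposite strand in all but Asns.
Asns: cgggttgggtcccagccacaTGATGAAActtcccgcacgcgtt
Chac1: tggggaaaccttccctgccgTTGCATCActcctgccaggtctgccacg
Trib3: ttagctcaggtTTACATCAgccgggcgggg
Herpud1: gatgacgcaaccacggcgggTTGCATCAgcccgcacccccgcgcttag
Herpud1 was the one gene of the 28 with both this element and the related ER stress element ERSE-II (ATTGG and CCACG with 1 base between), which Dnajb11 also carried and 0.04% of all genes did. Its ERSE-II copy lies at chr8:94386357-94386407 and is in capitals here.
Herpud1: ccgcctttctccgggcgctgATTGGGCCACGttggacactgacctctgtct
The unfolded protein response element TGACGTGG was in none of the 28 windows and in 0.71% of all genes. For AP-1, whose subunits Fra-1 and Fra-2 bind DNA as dimers with Jun proteins, the pattern TGANTCA was searched, which allows any middle base. It stood in 4 of the 28 (Hspa5, Sel1l, Eif2ak3 and Ddit3), or 14.3%, against 8.97% of all genes. The match was TGAGTCA in Hspa5, TGACTCA in Ddit3 and TGATTCA in both Sel1l and Eif2ak3. Shares for a pattern with only C or G in the middle were not computed, and binding to any form was not tested. The matches in Hspa5 (chr2:34771888-34771934, plus strand) and Ddit3 (chr10:127290543-127290577, plus strand) are shown in capitals.
Hspa5: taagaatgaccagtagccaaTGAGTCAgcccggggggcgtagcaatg
Ddit3: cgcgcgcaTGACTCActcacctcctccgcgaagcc
A match describes these letters alone and shows no binding.

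Between the lines, most Atf4 targets were higher in the Fra-1 controls than in the Fra-2 controls, and the called chaperones went both ways. In these control arrays 14 of 31 genes were called, 9 higher and 5 lower in the Fra-1 line. Of all features, 36.1% were called, 18.1% higher and 17.9% lower. Among the Atf4 targets 7 of 9 were higher and none lower, with a median log2 difference of 1.27, where the median of all features was −0.03. Among the chaperones 2 of 14 were higher and 2 lower, with a median of 0.09, and the 28.6% called was near the share of all features. The stress sensors Ern1 and Eif2ak3 and the degradation gene Herpud1 were lower. The control arrays of the lines did not overlap in 27 of the 31 genes, among them 10 of 14 chaperones and 9 of 9 Atf4 targets. The share over all features was not computed for this comparison, so a lack of overlap between the lines adds no support. In these bulk samples, a smaller share of cells of a type and less RNA per cell cannot be told apart. Without Fra-2 control 1 the count of called genes was 9, and without Fra-2 control 2 it was 8.

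**Figure D1:**
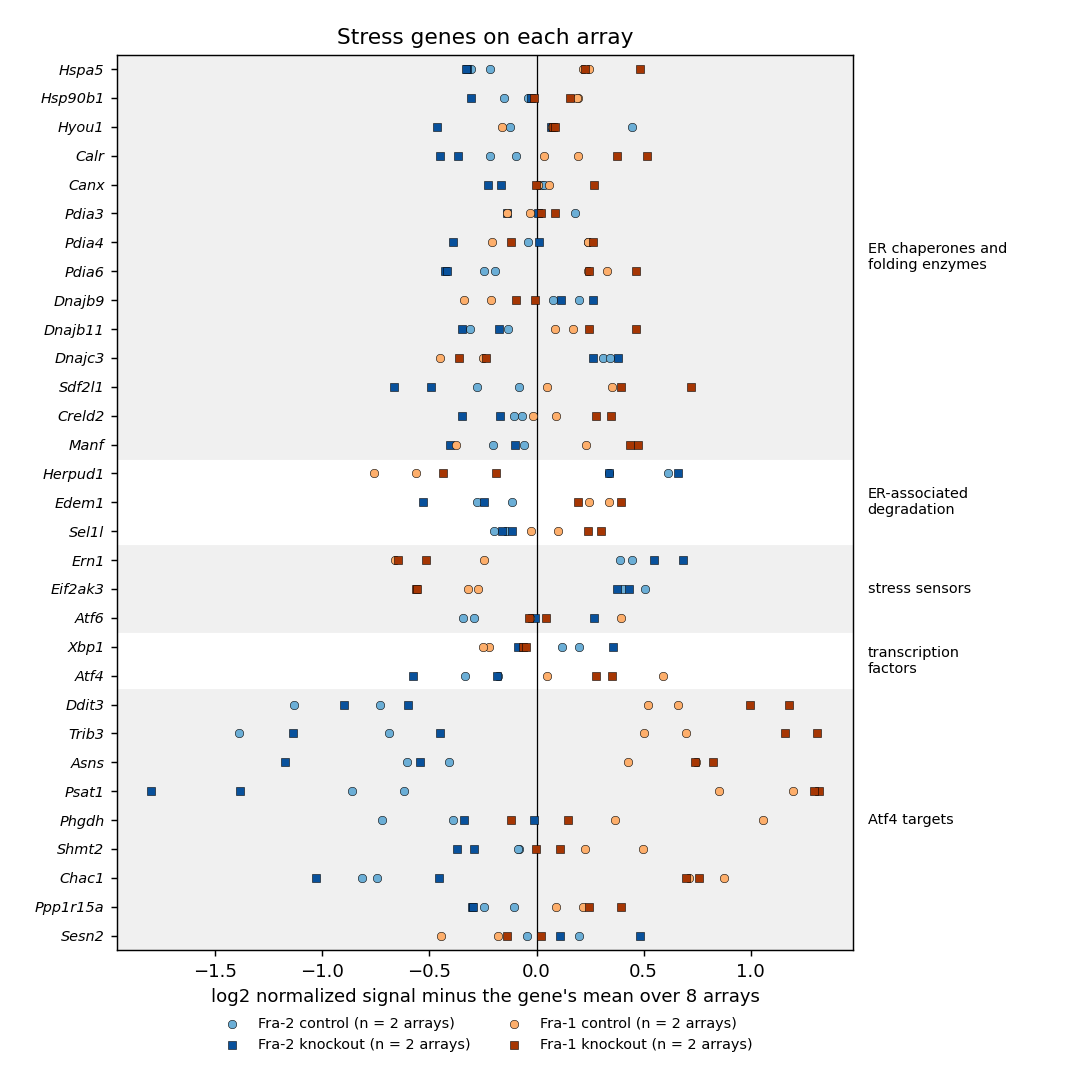
Each of the 31 genes is a line of 8 points, 1 per array, giving its log2 normalised signal minus its own mean over the 8 arrays. For Psat1, Ddit3, Trib3, Asns and Chac1 the 4 arrays of the Fra-1 line (orange and brown) lie to the right of all 4 arrays of the Fra-2 line (blue). The same order, with smaller gaps, holds for the chaperones Hspa5, Pdia6, Calr, Dnajb11, Sdf2l1, Creld2 and Hsp90b1. It also holds for Shmt2, Ppp1r15a, Atf4, Edem1 and Sel1l. Ern1, Eif2ak3, Dnajc3, Dnajb9 and Herpud1 show the opposite order.

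Of the Atf4 targets, 3 serve the making and use of serine, and all 3 were called higher in the Fra-1 controls. Psat1, the phosphoserine aminotransferase, had log2 signals of 1.21 and 1.44 in the Fra-2 controls and 2.92 and 3.26 in the Fra-1 controls. Its signal was 3.40-fold higher in the Fra-1 controls (log2 difference 1.76, SE 0.20, limma adjusted p = 0.00158). In the knockout arrays it was 0.68 and 0.26 for the Fra-2 line and 3.39 and 3.36 for the Fra-1 line, so that all 4 Fra-1-line arrays lay above all 4 Fra-2-line arrays. Phgdh, which commits the glycolytic intermediate 3-phosphoglycerate to serine synthesis, had signals of 0.47 and 0.14 in the Fra-2 controls and 1.23 and 1.92 in the Fra-1 controls, 2.41-fold higher (log2 1.27, SE 0.27, adjusted p = 0.0151). Its knockout arrays overlapped, at 0.85 and 0.52 for the Fra-2 line and 1.01 and 0.74 for the Fra-1 line. Phgdh arrays of the lines thus lay apart in the controls and overlapped in the knockouts. Shmt2, the mitochondrial enzyme that turns serine into glycine and a one-carbon unit, was 0.47 and 0.47 in the Fra-2 controls and 0.78 and 1.05 in the Fra-1 controls (log2 difference 0.45, SE 0.14, adjusted p = 0.0465). The Phgdh call was lost without Fra-2 control 2 (adjusted p = 0.0755) and without Fra-1 control 2 (0.0554), and that of Shmt2 in 7 of 8 refits that left out 1 array.

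Asns, the asparagine synthetase, read 1.74 and 1.94 in the Fra-2 controls and 2.77 and 3.09 in the Fra-1 controls. That is a 2.13-fold difference (log2 1.09, SE 0.24, limma adjusted p = 0.0154), and the knockout arrays kept the order, with 1.18 and 1.80 against 3.17 and 3.09. The Asns call was lost without Fra-2 control 1 (adjusted p = 0.0738) and without Fra-1 control 2 (0.08).

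The stress effectors of the same pathway moved in the same direction. Ddit3 (CHOP), a transcription factor that promotes cell death under prolonged stress, read 0.43 and 0.02 in the Fra-2 controls and 1.68 and 1.82 in the Fra-1 controls, 2.88-fold higher (log2 1.52, SE 0.19, limma adjusted p = 0.00224). Trib3, a pseudokinase induced by Ddit3 and Atf4, read 1.21 and 0.52 against 2.60 and 2.41 (log2 difference 1.64, SE 0.31, adjusted p = 0.00953). Chac1, which degrades glutathione, read −1.94 and −2.01 against −0.48 and −0.32 (log2 difference 1.57, SE 0.20, adjusted p = 0.00254). For all 3 genes the knockout arrays fell on the same sides, with Fra-2 knockouts at 0.56 and 0.26 for Ddit3, 1.45 and 0.77 for Trib3 and −1.65 and −2.23 for Chac1. The Fra-1 knockouts were at 2.34 and 2.15, 3.22 and 3.06, and −0.50 and −0.44. Ddit3 and Chac1 were called in all 8 refits without 1 array, as was Psat1, and Trib3 in 7, with an adjusted p of 0.0534 without Fra-1 control 1.

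The remaining targets were not called. Ppp1r15a (GADD34), which directs the phosphatase that reverses eIF2 phosphorylation, had signals of 3.51 and 3.65 in the Fra-2 controls and 3.85 and 3.97 in the Fra-1 controls (log2 difference 0.33, SE 0.12, limma adjusted p = 0.0873). Sesn2, a sestrin that restrains mTORC1 when leucine is short, had signals of 1.59 and 1.35 against 0.95 and 1.22, and was the one target with a negative difference (log2 −0.39, SE 0.19, adjusted p = 0.159).

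Of the transcription factors, neither mRNA was called. Atf4 had signals of 7.16 and 7.32 in the Fra-2 controls and 8.09 and 7.54 in the Fra-1 controls (log2 difference 0.58, SE 0.23, limma adjusted p = 0.0956), and without Fra-1 control 2 its adjusted p was 0.0464. Xbp1 had 6.88 and 6.80 against 6.46 and 6.43 (log2 difference −0.39, SE 0.17, adjusted p = 0.118), and 0.0462 without either Fra-2 knockout array. In both genes the control arrays of the lines did not overlap, with Atf4 above and Xbp1 below in the Fra-1 line, as in 27 of the 31 genes.

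Of the 3 sensors, 2 were lower in the Fra-1 line. Ern1 had signals of 1.58 and 1.63 in the Fra-2 controls and 0.94 and 0.53 in the Fra-1 controls, 1.83-fold lower (log2 −0.87, SE 0.17, limma adjusted p = 0.0105). Eif2ak3 had 2.31 and 2.20 against 1.48 and 1.53, 1.69-fold lower (log2 −0.75, SE 0.11, adjusted p = 0.0038). In both genes all 4 Fra-1-line arrays lay below all 4 Fra-2-line arrays, since the knockouts read 1.87 and 1.74 against 0.67 and 0.54 for Ern1 and 2.23 and 2.18 against 1.24 and 1.24 for Eif2ak3. Atf6, the sensor that is itself cleaved into a transcription factor, was 0.47 and 0.52 in the Fra-2 controls and 1.21 and 0.78 in the Fra-1 controls, and was not called (log2 difference 0.50, SE 0.18, adjusted p = 0.0791). Its knockout arrays overlapped. Without Fra-2 control 2 the adjusted p of Ern1 was 0.0521, and without Fra-1 control 2 that of Atf6 was 0.0426.

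The chaperones split. Hspa5, the main Hsp70 of the ER, was 6.61 and 6.70 in the Fra-2 controls and 7.13 and 7.16 in the Fra-1 controls (log2 difference 0.49, SE 0.13, limma adjusted p = 0.0304). Pdia6, a disulfide isomerase that works with Hspa5, was 7.09 and 7.03 against 7.61 and 7.52 (log2 difference 0.50, SE 0.12, adjusted p = 0.0242). Hspa5 was 1.41-fold and Pdia6 1.42-fold higher, with no overlap of the control arrays, as in 10 of the 14 chaperones. Lower were Dnajc3 (p58IPK), a co-chaperone that also inhibits Eif2ak3, with 3.08 and 3.12 against 2.53 and 2.33 (log2 difference −0.67, SE 0.13, adjusted p = 0.0099), and Dnajb9 (ERdj4), which holds Ern1 in check, with 2.38 and 2.50 against 2.09 and 1.96 (log2 difference −0.41, SE 0.12, adjusted p = 0.0457). The ERSE windows shown thus belong to genes called higher (Hspa5, Pdia6), called lower (Dnajc3) and not called (Calr). The calls of Hspa5 and Pdia6 were lost when any 1 of the 4 control arrays was left out (adjusted p up to 0.126 and 0.101), and that of Dnajb9 in all 8 refits.

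The other 10 chaperones were not called, and their log2 differences ran from −0.21 to 0.38. Those above 0 were Sdf2l1 (0.38, SE 0.18), Dnajb11 (0.35, SE 0.14), Hsp90b1 (0.29, SE 0.14), Calr (0.27, SE 0.13), Creld2 (0.13, SE 0.12), Manf (0.06, SE 0.23) and Canx (0.00, SE 0.13). Below 0 were Hyou1 (−0.21, SE 0.26), Pdia3 (−0.18, SE 0.13) and Pdia4 (−0.08, SE 0.24). They include the glucose-regulated Hsp90 (Hsp90b1), the lectin chaperones calreticulin and calnexin (Calr, Canx) with their partner isomerase Pdia3, and the secreted factor Manf. The sign of Hyou1, Canx, Pdia3, Pdia4 and Manf changed under at least 1 of 20 other settings, so no direction is given for them.

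Of the degradation genes, Herpud1, which helps to assemble the Hrd1 ligase complex at the ER membrane, read 3.78 and 3.51 in the Fra-2 controls and 2.41 and 2.61 in the Fra-1 controls. It was 2.20-fold lower in the Fra-1 line (log2 −1.14, SE 0.18, limma adjusted p = 0.00553) and was called in all 8 refits without 1 array. Herpud1, whose promoter holds both elements shown above, thus went the opposite way to Asns, Chac1 and Trib3. Edem1, a lectin that hands misfolded glycoproteins to degradation, read 3.19 and 3.35 against 3.81 and 3.72 and was not called (log2 difference 0.49, SE 0.15, adjusted p = 0.0521; 0.0452 without either Fra-2 knockout array). Sel1l, the scaffold of the Hrd1 ubiquitin ligase, read 2.12 and 2.18 against 2.42 and 2.30 (log2 difference 0.21, SE 0.11, adjusted p = 0.199).

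The 4 knockout arrays gave a further comparison of the lines on other animals, an addition made after the control result was seen. Unlike the controls, these groups also differ in Cre (MxCre or LysMCre) and in the gene deleted by the labels. Here 19 of 31 genes were called, 15 higher and 4 lower in the Fra-1 line, where 41.4% of all features were called, 22.4% higher and 18.9% lower. The 2 comparisons share no array but share the fit's estimate of spread. They had 11 called genes in common, all in the same direction, which is 78.6% of the control calls and 57.9% of the knockout calls. Over all features, 79.1% of control calls and 68.9% of knockout calls were shared in the same direction. The called Atf4 targets were all higher, Psat1 by 7.48-fold (log2 2.90, SE 0.20, limma adjusted p = 0.000306), Trib3 by 4.08-fold, Ddit3 by 3.58-fold, Asns by 3.12-fold, Chac1 by 2.77-fold and Ppp1r15a by 1.53-fold. Phgdh (log2 0.19, adjusted p = 0.608) and Shmt2 (log2 0.38, adjusted p = 0.0664) were not called.

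Chaperones were called more widely in the knockout arrays, 7 higher and 1 lower of 14, with a median log2 difference of 0.45. That is 57.1% called, against 41.4% of all features. Sdf2l1, a component of an ER chaperone complex with Dnajb11, was highest at 2.20-fold (log2 1.14, SE 0.18, limma adjusted p = 0.0048), followed by Calr (log2 0.86), Pdia6 (0.78), Manf (0.71, adjusted p = 0.0496), Hspa5 (0.68), Dnajb11 (0.62) and Creld2 (0.57). Dnajc3 was lower (log2 −0.62, adjusted p = 0.0119). Edem1 (log2 0.68) and Sel1l (0.41) were higher, and Herpud1 (−0.81), Ern1 (−1.20) and Eif2ak3 (−0.97) lower. A gene called in one comparison of the lines and not in the other is not thereby shown to differ between them. The test of that difference is the difference between the knockout effects given further on, in which no member was called.

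**Figure D2:**
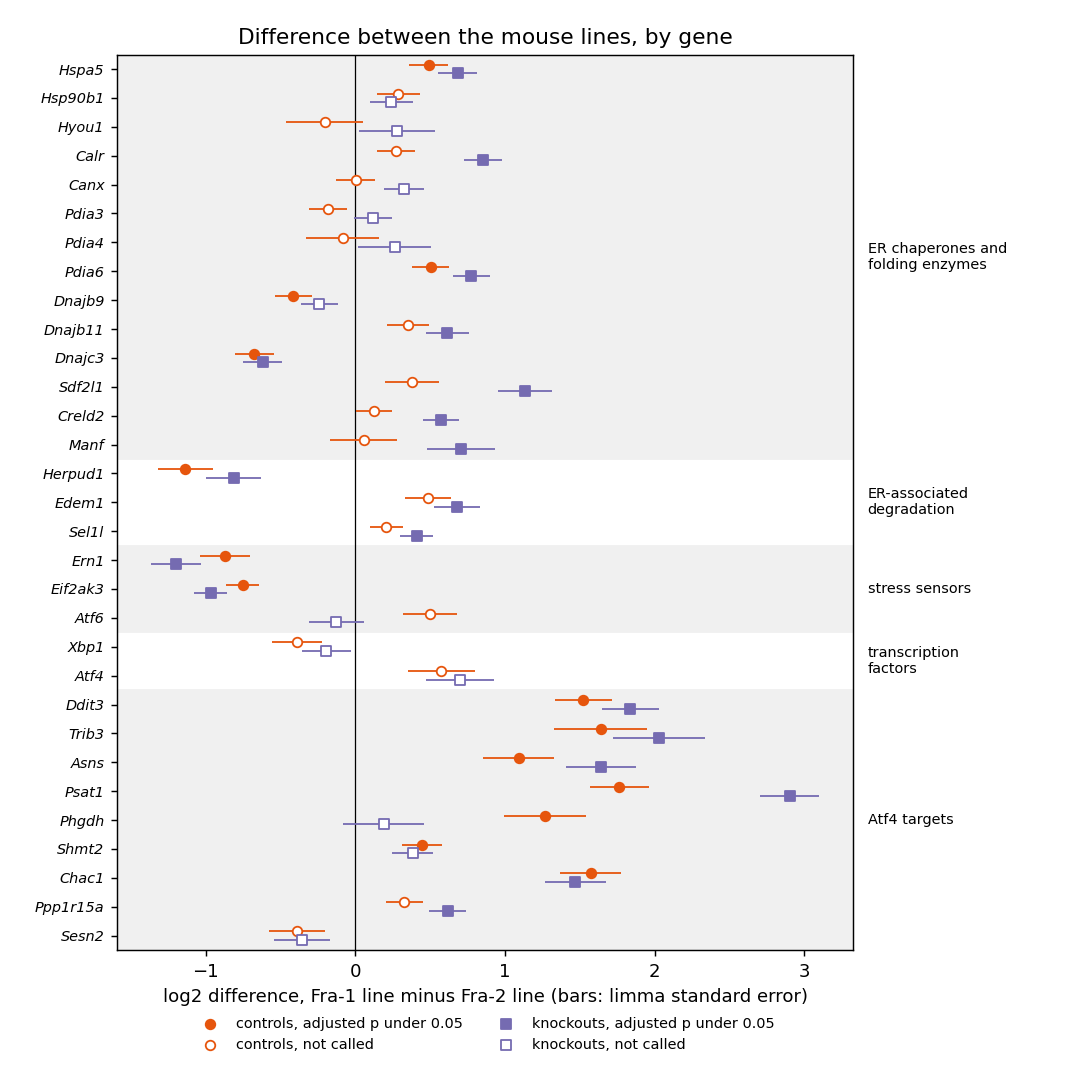
The log2 difference, Fra-1 line minus Fra-2 line, is plotted for each gene with its limma standard error, in control arrays (circles) and knockout arrays (squares). Filled symbols passed an adjusted p of 0.05, and 6 of the 9 Atf4 targets lie beyond 1 in at least 1 of the comparisons, against 1 of the 14 chaperones (Sdf2l1, in the knockouts).

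The array means show how far the 2 gene groups separated. With each gene centred on its mean over the 8 arrays, the mean of the 9 Atf4 targets lay between −0.69 and −0.46 on the Fra-2-line arrays and between 0.38 and 0.67 on the Fra-1-line arrays. The mean of the 14 chaperones lay between −0.25 and 0.00 and between −0.02 and 0.28, with Fra-1 control 1 at −0.02 below Fra-2 control 2 at 0.00. The spread within groups, as a pooled SD, was 0.13 for the Atf4 targets and 0.078 for the chaperones. Atf4 targets minus chaperones came to −0.39 and −0.59 in the Fra-2 controls, −0.22 and −0.54 in the Fra-2 knockouts, 0.40 and 0.54 in the Fra-1 controls and 0.54 and 0.27 in the Fra-1 knockouts. The arrays of the lines did not overlap in this difference, and within each line controls and knockouts did. These means are descriptions with no test, since the genes were grouped with the results known.

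**Figure D3:**
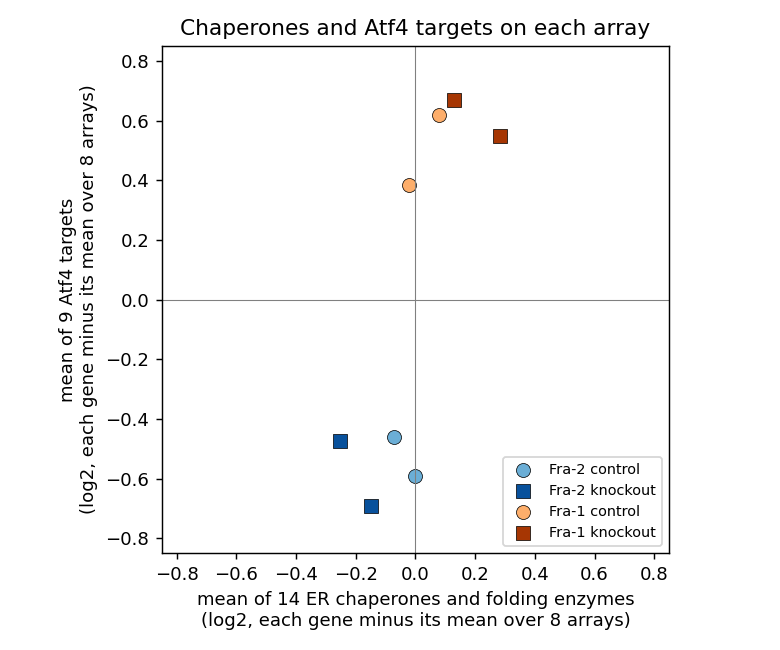
Each point is 1 array, with the mean of the 14 chaperones on the horizontal axis and of the 9 Atf4 targets on the vertical axis, both in log2 after centring each gene. The lines are apart on the vertical axis, at or below −0.46 and at or above 0.38, and meet near 0 on the horizontal one.

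The arrays were spread over 2 slides. Slide 1 held both Fra-1 controls and 1 array of each other group, and slide 2 the other 3 arrays, so the control comparison of the lines can be read within slide 1 alone. There the median log2 difference of the Atf4 targets was 1.19 and that of the chaperones 0.11. With slide as a term in the fit, Shmt2 (limma adjusted p = 0.0879) and Dnajb9 (0.0865) lost their calls, and Edem1 (0.0213) and Dnajb11 (0.0423) gained one.

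Markers of other cell types moved with the line beside all of these gene groups. Summed over 8 B cell markers, the log2 level was 5.32 to 6.39 in the Fra-2 controls and 2.82 to 2.87 in the Fra-1 controls, with Ms4a1 at 4.93 and 3.92 against −1.27 and 0.27. Of the 8, 7 had a negative difference. Cd22 went the other way, at 1.37 and 0.54 against 2.49 and 1.97, and was the brightest of them in the Fra-1 controls. In the Fra-1 controls 5 of the 8 were above background on both arrays. Mast cell markers (7 of 7 above background in both control groups) summed to 5.59 to 7.16 against 1.24 to 1.53. Summed fibroblast markers went the other way, with 5 of 10 above background and 1.74 to 2.51 in the Fra-2 controls, and 10 of 10 and 6.79 to 7.31 in the Fra-1 controls. Of the 10, 8 were called higher, while 2 had a negative difference, 1 of them called lower. Mesothelial markers were at 0.64 to 0.71 against 3.57 to 4.12. The knockouts were on the same sides for each of these lists, for instance 5.37 to 6.01 for fibroblasts in the Fra-1 knockouts and 2.27 to 2.30 in the Fra-2 knockouts. Plasma cells, which carry much ER and express chaperones strongly, had summed marker levels of 7.09 to 7.17 in the Fra-2 controls and 6.79 to 6.84 in the Fra-1 controls. That list includes the member Xbp1, whose own signal of 6.88 and 6.80 against 6.46 and 6.43 makes up most of these sums. The single markers moved further, with 7 negative and 3 positive log2 differences, from −5.42 (Pou2af1) to 2.83 (Sdc1). Mzb1 read 2.82 and 2.27 against −3.31 and −2.08, and the marker Tnfrsf17 was not well above background on any array. Macrophage markers summed to 10.4 to 10.9 over all arrays, but 5 of the 9 were called lower and 1 higher in the Fra-1 controls, with log2 differences of −3.94 for Cd14, −2.31 for Csf1r, −1.61 for Adgre1 and 1.93 for Cd68. Of 9 markers of large resident peritoneal macrophages, 6 were called lower and 1 higher in the Fra-1 controls, with a median log2 difference of −6.33. Their summed level was 7.74 to 8.33 in the Fra-2 controls and 7.50 to 7.76 in the Fra-1 controls. Cd9, the 1 marker with a positive difference, read 5.52 and 5.53 against 7.68 and 7.39 and made up most of the Fra-1 sums. The part of these cells in the results for the stress genes was not tested.

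The wider pathway was read from lists of related genes. Of 29 tested genes in other amino acid and Atf4 responses, 9 were higher and 5 lower in the Fra-1 controls. That is 48.3% called, against 36.1% of all features, with a median log2 difference of 0.38 over the 30 on the array. Atf3, a stress-induced factor downstream of Atf4, was 8.96-fold higher (log2 3.16, SE 0.22, limma adjusted p = 0.000344), and Atf5, which is translated by the same route as Atf4, was 2.27-fold higher (log2 1.18, adjusted p = 0.000816). Nupr1, a stress-induced chromatin protein, was 19.2-fold lower (log2 −4.26, SE 0.14, adjusted p = 7.74e-05), at 6.50 and 6.44 in the Fra-2 controls and 2.16 and 2.25 in the Fra-1 controls. Cebpb, a partner of Atf4 and Ddit3 in dimers, was 2.13-fold lower (adjusted p = 0.00482). Among 20 aminoacyl-tRNA synthetases 6 were higher, led by Cars (log2 0.71) and Eprs (0.77), and 1 was lower (Vars, −0.62), with a median of 0.23. The 14 genes around eIF2 had 3 higher, among them its alpha subunit Eif2s1 (0.72) and the amino acid sensing kinase Eif2ak4 (0.90), and 2 lower, Nck1 (−0.57) and the haem-regulated kinase Eif2ak1 (−0.45). In the knockout arrays 7 of the 29 amino acid and Atf4 response genes were higher and 8 lower in the Fra-1 line, with a median of −0.06. That is 51.7% called, against 41.4% of all features. In the test of the difference between the knockout effects 0 of the 29 were called, so no change between the 2 comparisons is shown for them. The synthetases had 10 higher and 1 lower in the knockout arrays (median 0.47), and the genes around eIF2 5 higher and 2 lower (0.15).

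The other lists, read here in the control arrays, cover ER and heat shock genes. Of 31 other ER folding and degradation genes 3 were higher, among them Edem2 (log2 difference 0.93, limma adjusted p = 0.00453) and the Hrd1 ligase Syvn1 (0.38, adjusted p = 0.0397), and 4 lower, among them the disulfide reductase Dnajc10 (−1.01, adjusted p = 0.0046). Derl3, a degradation gene that is also on the plasma cell list, was lower too, at −0.36 and −0.83 against −5.93 and −3.87, and was above background on 6 of 8 arrays. The median of this list was −0.02. Of 23 translocon and signal peptide genes 7 were higher, led by the signal peptidase subunits Spcs2 (0.86) and Sec11c (0.55), and 1 lower (Ssr4, −0.97), with a median of 0.12. Of 20 cytosolic and mitochondrial heat shock genes, which answer to unfolded protein outside the ER, 9 were higher and 1 lower, with a median of 0.37. The small heat shock proteins Hspb1 (log2 3.13, 8.73-fold) and Cryab (log2 3.64, 12.5-fold) led these, and the inducible Hsp70 Hspa1a was lower (−0.92). These lists hold between 22.6% and 50.0% called genes, around the 36.1% of all features.

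Loss of Fra-1 called none of the 31 genes against littermate controls, and 0.0131% of all features (3 of 22865). At an unadjusted limma p under 0.05 there were 3 genes, where 8.81% of all features passed. Calr had log2 signals of 5.32 and 5.48 in the Fra-1 controls and 5.66 and 5.80 in the Fra-1 knockouts (difference 0.33, SE 0.13, adjusted p = 0.543). Ddit3 had 1.68 and 1.82 against 2.34 and 2.15 (difference 0.50, SE 0.19, adjusted p = 0.543). Phgdh had 1.23 and 1.92 against 1.01 and 0.74 (difference −0.70, SE 0.27, adjusted p = 0.552), which was −0.35 when Fra-1 control 2 was left out and −1.04 when Fra-1 control 1 was. In each of these 3 the arrays of the groups did not overlap, with Calr and Ddit3 above and Phgdh below their controls. Of all features, 27.6% were apart upwards and 18.7% downwards. The 3 genes were picked by p on the same arrays, so the lack of overlap adds no support.

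By direction alone, 13 of the 14 chaperones had a positive difference with Fra-1 loss, with a median log2 difference of 0.13 against 0.03 over all features. Positive differences were also found in 17 of 23 translocon and signal peptide genes and 15 of 20 aminoacyl-tRNA synthetases. Of the 31 other ER folding and degradation genes 18 were positive, of the 14 genes around eIF2 8, and of all 22865 features 12628. The other amino acid and Atf4 response genes went the other way, with 12 positive and 18 negative and a median of −0.08. So did the heat shock genes, with 7 positive and 13 negative. Both knockout arrays lay above both controls in 8 of the chaperones and below in 1 (Hsp90b1), where 27.6% of all features were apart upwards and 18.7% downwards. Manf read 2.33 and 2.93 in the controls and 3.14 and 3.18 in the knockouts (log2 difference 0.53, SE 0.23, limma adjusted p = 0.586), but 0.23 when Fra-1 control 1 was left out and 0.83 when Fra-1 control 2 was. Sdf2l1 (0.36), Calr (0.33) and Creld2 (0.27) also lay above 0. Without Fra-1 knockout 1 the chaperone median was 0.25. Among the Atf4 targets 6 of 9 were positive, with a median of 0.20, and arrays were apart upwards in 5 and downwards in 2. Trib3 (0.63, SE 0.31) and Ddit3 led the positive ones, and the serine pathway was mixed, with Psat1 at 0.29, Shmt2 at −0.31 and Phgdh at −0.70. Without Fra-1 control 2 the median of the targets was 0.36. Herpud1 (0.35), Sel1l (0.23), Xbp1 (0.18) and Edem1 (0.00) were at or above 0, Atf4 at 0.00, and all 3 sensors below it, with Eif2ak3 at −0.26 (SE 0.11, adjusted p = 0.576), Atf6 at −0.18 and Ern1 at −0.13. Fibroblast markers were lower in the knockouts at the same time, at 6.79 to 7.31 in the controls and 5.37 to 6.01, and mesothelial markers at 3.57 to 4.12 and 2.55 to 3.13. Their part in these values was not tested.

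Loss of Fra-2 by the labels also called none of the 31 genes, and 0.00875% of all features (2 of 22865). At an unadjusted limma p under 0.05 there were 2, where 8.82% of all features passed. Psat1 had log2 signals of 1.21 and 1.44 in the Fra-2 controls and 0.68 and 0.26 in the arrays labelled Fra-2 knockout, 1.81-fold lower (difference −0.85, SE 0.20, unadjusted p = 0.00517, adjusted p = 0.28). Its difference was −0.53 within slide 1 and −1.18 within slide 2. Atf6 had 0.47 and 0.52 against 1.09 and 0.81 (difference 0.45, SE 0.18, adjusted p = 0.564). In both genes the groups did not overlap, with Psat1 below and Atf6 above the controls. Of all features, 15% were apart upwards and 20.1% downwards. Both genes were picked by p on the same arrays, so the lack of overlap adds no support.

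The chaperones leaned the other way here. Of the 14, 13 had a negative difference, with a median log2 difference of −0.17 against −0.03 over all features. Negative differences were also found in 20 of 23 translocon and signal peptide genes and 17 of 20 aminoacyl-tRNA synthetases. Of the 31 other ER folding and degradation genes 22 were negative, of 20 heat shock genes 14, and of all 22865 features 12526. The other amino acid and Atf4 response genes had 17 positive and 13 negative, and the genes around eIF2 10 and 4. The lean was thus shared by some of these lists and not particular to the chaperones. Arrays were apart downwards in 7 of the chaperones and upwards in 0, where 20.1% of all features were apart downwards and 15% upwards. Sdf2l1 had the lowest difference, with 2.84 and 2.64 in the controls and 2.43 and 2.25 in the knockouts (log2 −0.40, SE 0.18, limma adjusted p = 0.61), and then Hyou1 (−0.36), Pdia4 (−0.29), Calr (−0.25) and Canx (−0.22). Within slide 1 the chaperone median was −0.24 and within slide 2 it was −0.13. Without Fra-2 knockout 1, the array with the dimmest signal, it was −0.09. The Atf4 targets had a median of 0.04 with 5 of 9 positive, and that median was −0.10 without Fra-2 knockout 1, −0.05 without Fra-2 control 2 and 0.33 without Fra-2 knockout 2, so no direction is given for them. Asns (−0.35, SE 0.24) and Shmt2 (−0.25, SE 0.14) lay below 0 with Psat1, and Phgdh (0.38, SE 0.27), Trib3 (0.25), Sesn2 (0.22) and Ddit3 (0.18) above it. Herpud1 (0.02), Sel1l (0.03), Xbp1 (−0.02) and Eif2ak3 (−0.05) were near 0, with Edem1 at −0.19, Atf4 at −0.12 and Ern1 at 0.20. Markers of large resident peritoneal macrophages, with 9 of 9 above background in both groups, summed to 7.74 to 8.33 in the controls and 8.42 to 8.83 in the knockouts, and dendritic cell markers to 4.91 to 5.08 and 3.83 to 4.20. Their part in these values was not tested.

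**Figure D4:**
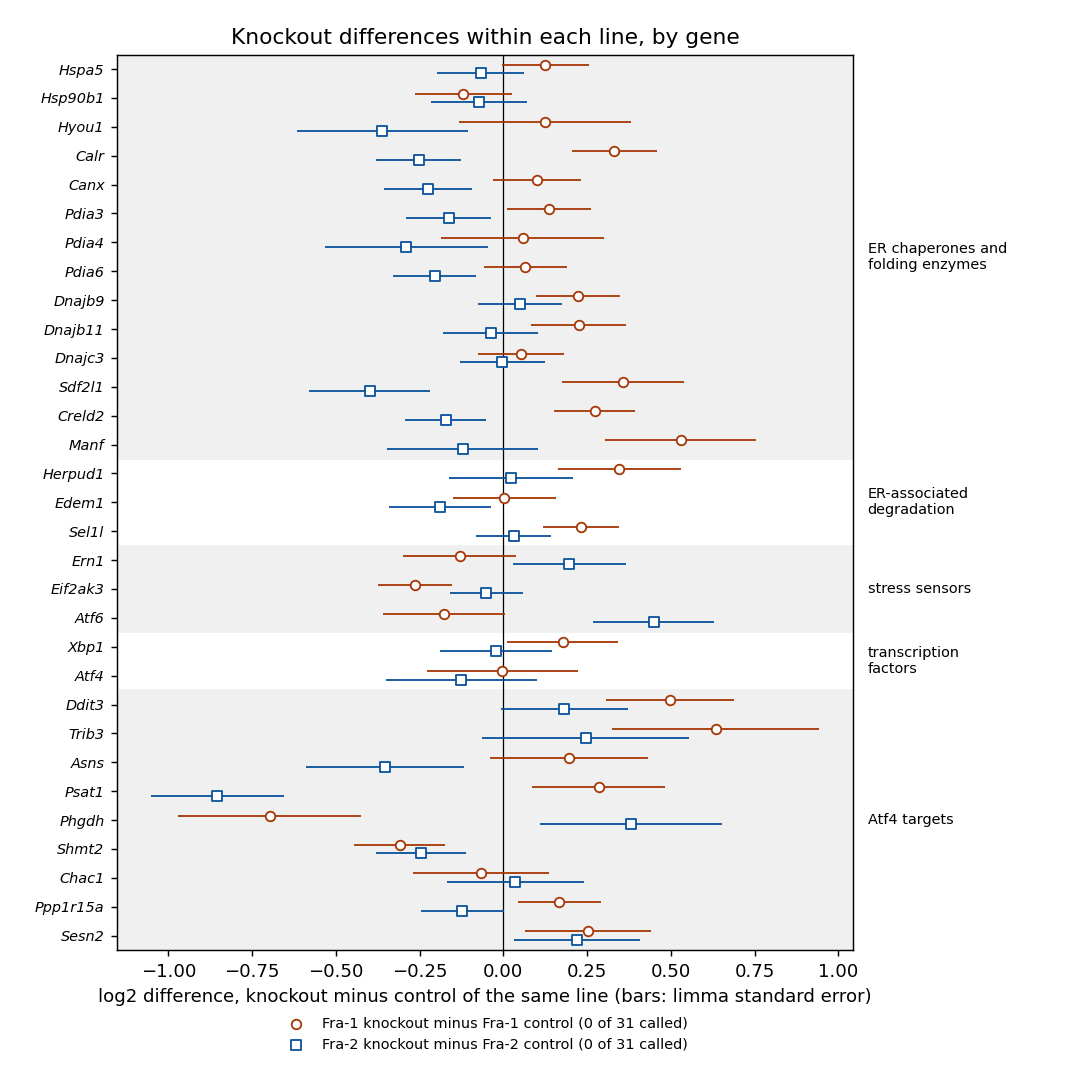
The log2 difference, knockout minus control of the same line, is plotted per gene with its limma standard error for Fra-1 (circles) and Fra-2 (squares). None of the 31 was called in either, and 13 of 14 chaperones lie above 0 for Fra-1 and 13 of 14 below 0 for Fra-2.

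The difference between the Fra-1 and Fra-2 effects was tested directly in the same fit, and none of the 31 genes was called, where 0.00437% of all features (1 of 22865) were. At an unadjusted limma p under 0.05 there were 5 genes, and 9.54% of all features. Psat1 had the smallest p, with an effect of 0.29 for Fra-1 and −0.85 for Fra-2 (log2 difference 1.14, SE 0.28, unadjusted p = 0.00677, adjusted p = 0.331). Of the 5, 3 were chaperones with a positive difference, Sdf2l1 (0.76, adjusted p = 0.448), Calr (0.58, adjusted p = 0.417) and Creld2 (0.44, adjusted p = 0.508). Phgdh was the fifth, with effects of −0.70 and 0.38 (difference −1.08, SE 0.39, adjusted p = 0.47). Psat1 and Phgdh, neighbouring enzymes of one pathway, thus had opposite signs in both effects. Over the 14 chaperones the median difference was 0.31 with 13 positive, over the 9 Atf4 targets 0.29 with 6 positive, and over all features 0.05. Among related lists, 19 of 20 aminoacyl-tRNA synthetases, 18 of 23 translocon and signal peptide genes and 20 of 31 other ER genes were positive. So were 9 of 14 genes around eIF2, 11 of 20 heat shock genes and 12768 of all 22865 features. Of the 30 other amino acid and Atf4 response genes on the array 12 were positive and 18 negative, with a median of −0.18. Without Fra-2 control 1 the median of the targets was 0.04, without Fra-2 knockout 2 it was 0.05, and without Fra-1 knockout 2 the chaperone median was 0.17. The lines differ in Cre, elicitation and deletion at once, and these cannot be told apart.

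A second, dimmer probe was present for 6 genes. For the line difference in controls it gave 1.10 for Psat1 (brightest probe 1.76), 1.26 for Phgdh (1.27), 0.45 for Atf4 (0.58), 0.41 for Pdia6 (0.50) and −0.79 for Dnajb9 (−0.41), the same sign in each. The dimmer Dnajb11 probe was not well above background on any array. With the knockouts, the dimmer probe gave 0.36 for Psat1 and −0.77 for Phgdh with Fra-1 loss, and −0.57 for Psat1 and 0.23 for Phgdh with Fra-2 loss, so that the opposite signs of these enzymes stood on both probes.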

How the data were processed

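One-colour (Cy3) Agilent arrays measured 8 samples, 2 in each of 4 groups set by the genotype labels. The deposited scanner files hold intensity values per spot, processed by Feature Extraction 11.5.1.1 per the file headers (background-subtracted signal). The authors' deposited value table, in log2 per its values, matched the centred scanner values (r = 1.0 over 55681 probes) and served as an alternative. Outlier spots were dropped, spots of a probe averaged, and log2 signal taken minus each array's 75th percentile. Probes were named by RefSeq accession, and each gene was read on its brightest probe. Features well above background on both arrays of at least 1 group (22865) were tested with limma 3.58.1 (R 4.3.3), 4 group means over all 8 arrays, p adjusted by Benjamini-Hochberg over all features. The number of arrays limits the precision. All members are named, and from each pathway list the 2 called genes of smallest p in each direction; of cell type lists, some defining genes. Members and lists were chosen with earlier results of these data known. The script was tested on simulated data. Alternatives were other normalizations, filters, probe rules, a slide term, and leaving out each array. Replicates were numbered by accession order, so numbers pair no samples.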

Additional observations from a re-analysis of the deposited data

How the results depend on the processing

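The 3 knockout comparisons called 0 members under every alternative tried, and no member called between the lines in the control arrays changed sign under any of them. In the control comparison of the lines, members called ran from 8 to 14 when 1 array was left out, a refit in which the lone array of its group is assumed to vary like the others. The count was 10 with no filter on dim features and 10 with only the groups compared. Averaging the line difference over controls and knockouts gave 22 called members and a chaperone median of 0.31. The knockout arrays, chosen after seeing the data, gave 0.45 for chaperones and 1.47 for Atf4 targets. Normexp background correction gave 1.13 for Atf4 targets. Leaving out 1 array, the line median ran from 0.051 to 0.23 for chaperones and 0.93 to 1.54 for Atf4 targets. With Fra-1 loss these medians ran from 0.12 to 0.25 and 0.11 to 0.36, with Fra-2 loss from −0.23 to −0.086 and −0.10 to 0.33, and for the difference between the effects from 0.17 to 0.42 and 0.039 to 0.37. Replicate numbers come from accession order and pair no samples; the slides, which each hold a Fra-2 control and a Fra-2 knockout, were fitted as a term and kept the 0 calls with Fra-2 loss.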
